A study of Mus musculus with 14 samples.

Results

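Collagen VI is an extracellular matrix protein built from 3 different chains, α1, α2 and α3, which are the products of Col6a1, Col6a2 and Col6a3. These 3 genes of the 35275 in the expression table were followed across murine KMF ovarian cancer cells with and without focal adhesion kinase (FAK). They were matched by gene symbol, and they had been picked for their rise when FAK was put back into cells that lack it. The levels in the FAK knockout and FAK re-expressing cells are therefore given as a description, and the 3 chains were tested only in pairs of lines that hold neither.

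The chains fold together into a short triple helix with large globular ends, pair into tetramers inside the cell, and assemble outside it into beaded microfibrils. The usual triple helix holds 1 of each chain, and the loss of any of the 3 is known to disturb assembly. The microfibrils lie close to basement membranes and around cells, where they bind other matrix proteins and surface receptors, and in tumors they are made by stromal cells and by some cancer cells. Integrin contacts with the matrix are a known site of activation of FAK, a tyrosine kinase of the cytoplasm. In the Wnt pathway, β-catenin acts as a transcriptional co-activator.

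The 14 poly(A)-selected RNA libraries came from 5 lines grown for 5 days as anchorage-independent tumorspheres in serum-free medium. KMF cells (n = 3) are the parental line, derived from ID8 ovarian epithelial cells of C57Bl6 mice by passage in the animal. FAK KO cells (n = 3) are 1 CRISPR clone, KT13, edited in Ptk2, the gene of FAK. The other lines were all made from that clone and so share its edit: FAK-WT (n = 3) carries GFP-FAK, FAK-R454 (n = 2) carries GFP-FAK with an inactive kinase domain, and β-catenin ΔGSK (n = 3) carries an active β-catenin. The FAK transgenes were delivered by a lentivirus with a CMV promoter, and the β-catenin transgene with separately expressed GFP by a virus that the study's methods call retroviral in one place and lentiviral in another. The labels call the libraries independent RNA samples without naming separate clones, so the errors measure the spread between these samples, which may be technical. In bulk RNA, fewer cells that express a gene and less of its RNA per cell cannot be told apart.

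Between 25390558 and 35289859 fragments per library fell on genes, with a median of 28720224. Levels are in FPKM, fragments scaled to gene length and to the fragments of the library, as mean ± SD. Ptk2 mRNA was lowest in β-catenin ΔGSK, at 15.5 ± 0.401 FPKM, followed by FAK KO at 19.0 ± 1.45, KMF at 24.3 ± 0.421, FAK-WT at 43.4 ± 1.76 and FAK-R454 at 62.4 ± 4.42 FPKM. These values count the whole gene and cannot separate edited transcripts from the transgene, so they check the FAK transgenes but not the knockout. Ctnnb1, the β-catenin gene, was at 144.6 ± 4.63 FPKM in FAK KO and 214.1 ± 8.24 in β-catenin ΔGSK. Keratins Krt8, Krt18 and Krt19 and the ovarian surface genes Wt1, Msln and Upk3b were above 1 FPKM in every sample, whereas Krt7, Cdh1, Epcam and Pax8 were below it. FAK-WT replicate 3 stood apart from the rest of the FAK-WT libraries, with a chi-square of 30.5 and 42.5 per gene against 3.15 between that pair, where counting noise alone gives about 1. KMF replicate 3 did so as well, with 23.8 and 29.0 against 4.59 between the other KMF libraries. For β-catenin ΔGSK replicate 1 the values were 18.1 and 30.4 against 8.75 between the other two, and the FAK KO pairs ran from 8.17 to 22.2.

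The genome holds the 3 genes at 2 loci, all on the minus strand of GRCm38. Col6a2 (ENSMUSG00000020241, chr10:76595762-76623630) lies 85161 bases from Col6a1 (ENSMUSG00000001119, chr10:76708792-76726168), and Col6a3 (ENSMUSG00000048126) is at chr1:90765923-90843971. The summed exon lengths used for the FPKM values were 4100 bases for Col6a1, 4912 for Col6a2 and 10106 for Col6a3.

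The DNA just before the first annotated base of each gene is shown because Col6a1 and Col6a2, next to each other, kept one order of levels over the lines and Col6a3 another. The sequences are from RefSeq (GRCm38.p6, minus strand, 5′ to 3′) and cover chr10:76726169-76726294, chr10:76623631-76623880 and chr1:90843972-90844221. Capitals mark a match to one of the motifs searched.
Col6a1: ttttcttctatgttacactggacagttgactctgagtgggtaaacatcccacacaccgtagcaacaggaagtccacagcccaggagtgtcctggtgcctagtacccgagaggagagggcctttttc
Col6a2: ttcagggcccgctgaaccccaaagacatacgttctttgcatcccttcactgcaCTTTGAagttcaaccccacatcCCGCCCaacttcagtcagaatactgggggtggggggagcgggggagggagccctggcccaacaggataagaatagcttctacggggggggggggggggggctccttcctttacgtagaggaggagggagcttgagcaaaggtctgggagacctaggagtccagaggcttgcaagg
Col6a3: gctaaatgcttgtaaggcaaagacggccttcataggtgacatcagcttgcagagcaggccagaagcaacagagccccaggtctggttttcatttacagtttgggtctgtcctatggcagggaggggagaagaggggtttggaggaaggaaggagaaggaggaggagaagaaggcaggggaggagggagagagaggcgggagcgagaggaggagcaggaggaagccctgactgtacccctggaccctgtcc

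A set of 7 motifs was searched on both strands in the 250 bases before each of the RefSeq starts, of which Col6a2 has a pair and the others 1 each. They were CTTTGA (the core of TCF/LEF sites, the factors that β-catenin binds), the GC box GGGCGG, the CCAAT box, the TATA box TATAAA, the AP-1 motif TGANTCA, the TEAD motif CATTCC and the SMAD motif CAGACA. The RefSeq start of Col6a1 lies inside the first annotated exon, and its window held an AP-1 match and a TCF/LEF match within one short stretch at chr10:76726112-76726139.
Col6a1 stretch: tgctgTGACTCActcagCTTTGAggccc

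Before the outer start of Col6a2 there was a TCF/LEF match 197 to 192 bases upstream and a GC box 175 to 170 bases upstream. The window of its inner start held 3 GC boxes, of which the 2 nearest to the start overlap, and a TEAD match. The Col6a3 window held none of these motifs. Of 32851 mouse promoter windows of the same length, 13.8% held CTTTGA, 32.7% GGGCGG, 33.8% CCAAT, 12.4% TATAAA, 6.75% TGANTCA, 12.6% CATTCC and 17.1% CAGACA. A match describes letters in a window and is not a measured binding site.

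Col6a1, the α1 chain, was the most abundant of the chains per length in every sample. Its level in KMF was 17.5, 16.3 and 17.7 FPKM (17.2 ± 0.795, SD, n = 3). In FAK KO it was 5.39, 5.61 and 6.63 FPKM (5.88 ± 0.663). FAK-WT held 64.6, 69.5 and 68.8 FPKM (67.6 ± 2.62) and FAK-R454 held 27.3 and 24.3 FPKM (25.8 ± 2.13, n = 2). The 3 FAK-WT samples were the highest and no FAK-WT or FAK-R454 sample overlapped any other line. In β-catenin ΔGSK it was 5.68, 6.32 and 5.06 FPKM (5.69 ± 0.633), which overlapped FAK KO. These levels rest on 600 to 8857 fragments per sample.

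Col6a2, the α2 chain, was measured at 5.65, 5.52 and 4.55 FPKM in KMF (5.24 ± 0.605). FAK KO held 0.730, 1.09 and 1.03 FPKM (0.947 ± 0.190), from 108 to 141 fragments. With FAK-WT it stood at 14.3, 14.1 and 11.9 FPKM (13.4 ± 1.34). Its samples therefore lay in the same order of lines as those of Col6a1. FAK-R454 held 7.40 and 6.27 FPKM (6.83 ± 0.799). β-catenin ΔGSK held 0.760, 0.657 and 0.706 FPKM (0.708 ± 0.0515), again overlapping FAK KO and no other line.

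Col6a3, the α3 chain, had a different order. KMF was at 2.48, 2.62 and 3.41 FPKM (2.84 ± 0.502) and FAK KO at 2.96, 3.47 and 3.47 FPKM (3.30 ± 0.297). These lines overlapped, unlike for Col6a1 and Col6a2. FAK-WT held 7.92, 9.02 and 13.7 FPKM (10.2 ± 3.05), the highest value being that of replicate 3. The 2 FAK-R454 samples lay close together at 5.26 and 5.25 FPKM (5.26 ± 0.00558). β-catenin ΔGSK was at 0.181, 0.113 and 0.161 FPKM (0.152 ± 0.0351), from 29 to 52 fragments, below every sample of every other line.

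**Figure D1:**
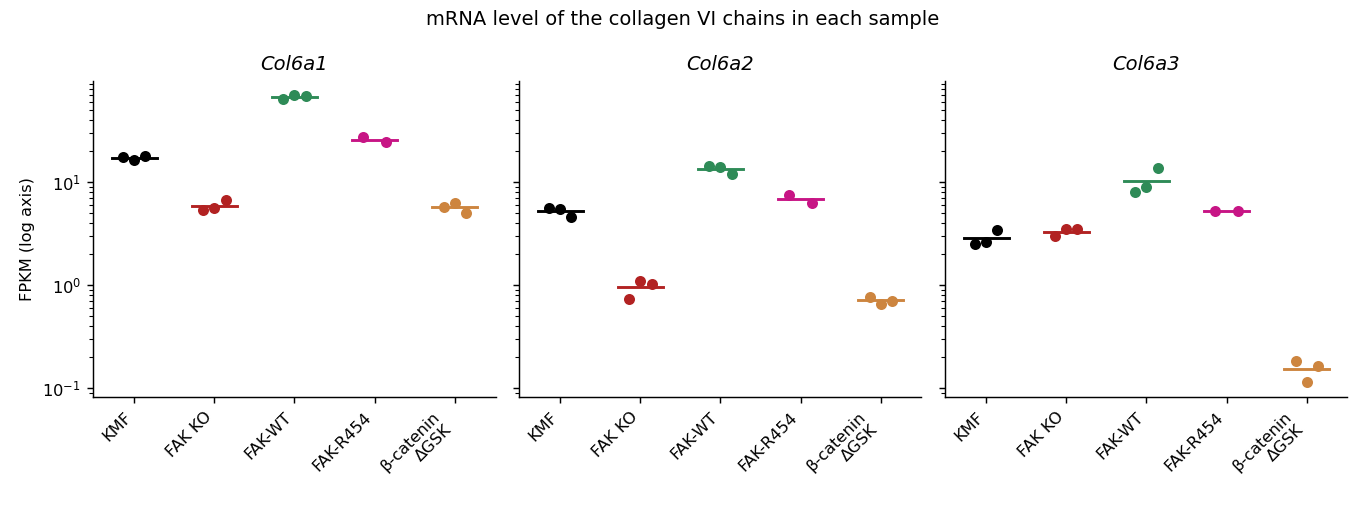
Level of each collagen VI chain mRNA in FPKM on a log axis, with 1 point per sample and a line at the mean of each of the 5 lines. FAK-WT is highest for every chain, at 67.6, 13.4 and 10.2 FPKM, and only Col6a3 falls far below FAK KO in β-catenin ΔGSK, at 0.152 against 3.30 FPKM.

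From low to high, Col6a1 and Col6a2 ran from β-catenin ΔGSK and FAK KO, which did not separate, to KMF, FAK-R454 and FAK-WT, each apart from its neighbour. For Col6a3 the order was β-catenin ΔGSK, then KMF and FAK KO, which did not separate, then FAK-R454 and FAK-WT. The closest neighbours that did not overlap were KMF and FAK-R454 for Col6a2, with means in a ratio of 1.30. Samples without overlap are common here. Of all genes tested, 20.8% lay higher without overlap in FAK-WT than FAK KO, 25.4% in FAK-R454 than FAK KO and 27.4% in KMF than FAK KO. The share was 16.7% for FAK-WT over FAK-R454, 34.3% for FAK-R454 over KMF and 39.4% for FAK-R454 over β-catenin ΔGSK. Lower without overlap in β-catenin ΔGSK were 37.3% of genes against FAK KO and 35.4% against KMF.

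The 3 remaining genes of the family, Col6a4, Col6a5 and Col6a6, encode chains that can stand in for α3. All 3 were below 1 FPKM in every line and none was tested. Their highest line means were 0.0421 FPKM for Col6a4 and 0.262 FPKM for Col6a6, both in β-catenin ΔGSK, and 0.0617 FPKM for Col6a5 in KMF.

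Differences between lines were taken on log2(FPKM + 0.1), a scale that understates changes of low genes, and are given with the standard error of limma. FAK-WT exceeded FAK KO by 3.51 ± 0.09 for Col6a1 (11.5-fold in mean FPKM), 3.70 ± 0.15 for Col6a2 (14.2-fold) and 1.56 ± 0.18 for Col6a3 (3.09-fold). This is the difference the genes were picked on. Without FAK-WT replicate 3 the Col6a3 value was 1.33. Samples of these lines did not overlap for all 3 chains, from which nothing is read here. With a pseudocount of 1 the Col6a2 difference was 2.89.

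FAK-R454, the kinase-inactive form, exceeded the same FAK KO samples by 2.12 ± 0.11 for Col6a1 (4.40-fold), 2.74 ± 0.18 for Col6a2 (7.21-fold) and 0.66 ± 0.11 for Col6a3 (1.59-fold). Between the FAK-expressing lines, FAK-WT lay above FAK-R454 by 1.39 ± 0.07, 0.96 ± 0.11 and 0.90 ± 0.22 for Col6a1, Col6a2 and Col6a3, or 2.62-, 1.96- and 1.94-fold. Without FAK-WT replicate 3 the Col6a3 difference was 0.67. No sample overlapped between these lines in any chain. FAK-R454 also held more Ptk2 mRNA than FAK-WT, at 62.4 against 43.4 FPKM, and the part of transgene level in these differences was not tested. At the protein level, the study describes both GFP-FAK forms as equally expressed in its immunoblots of anchorage-independent cells.

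KMF exceeded FAK KO by 1.54 ± 0.09 for Col6a1 (2.92-fold) and 2.36 ± 0.16 for Col6a2 (5.53-fold), whereas Col6a3 differed by -0.22 ± 0.14 with overlapping samples. The parental line differs from the clone both in FAK and in not being that clone, and these cannot be told apart. β-catenin ΔGSK differed from FAK KO by -0.05 ± 0.12 for Col6a1 and by -3.76 ± 0.18 for Col6a3, which was 21.7-fold lower in mean FPKM. With a pseudocount of 1 that Col6a3 difference was -1.90. Col6a2 was at or below 1 FPKM on average in both lines and was not compared.

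The pairs of lines without FAK-WT or FAK KO samples were tested with limma over all genes. Calls required a Benjamini-Hochberg adjusted p under 0.05, a log2 difference of at least 1 in size and a mean above 1 FPKM in the higher line. All 3 chains were called lower in β-catenin ΔGSK than in KMF, a call made for 7.17% of the 11902 genes tested. These lines differ in the clone, in the Ptk2 edit and in the transgene, which cannot be told apart. For Col6a1 and Col6a2 the β-catenin ΔGSK samples overlapped those of FAK KO, the same clone without the transgene. Col6a2 and Col6a3 entered this test through their KMF level alone, since their β-catenin ΔGSK means were below 1 FPKM, so they could enter it only as falls. Col6a1 was lower by 1.58 on the log2 scale (SE 0.09, adjusted p = 1.66e-06), which is 3.02-fold in mean FPKM. The Col6a2 difference was -2.72 ± 0.13 (adjusted p = 4.53e-07, 7.40-fold lower) and that of Col6a3 was -3.54 ± 0.20 (adjusted p = 1.08e-06, 18.7-fold lower). The 95% confidence intervals were -1.80 to -1.37, -3.01 to -2.43 and -3.99 to -3.09, and no sample of either line overlapped the other. The sizes and their order depended on the scale, since a pseudocount of 1 gave -1.45, -1.87 and -1.73 and limma-voom gave -4.22 for Col6a3, all called lower. Without β-catenin ΔGSK replicate 1 the differences were -1.58, -2.77 and -3.62, and without KMF replicate 3 they were -1.56, -2.82 and -3.40.

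FAK-R454 held more of all 3 chains than β-catenin ΔGSK, which carries the other transgene in the same clone. The difference was 2.17 ± 0.11 for Col6a1 (4.54-fold, adjusted p = 3.13e-06), 3.10 ± 0.14 for Col6a2 (9.65-fold, adjusted p = 1.98e-06) and 4.42 ± 0.20 for Col6a3 (34.6-fold, adjusted p = 1.79e-06). All 3 were called higher, as were 7.17% of the 11929 genes tested, but Col6a2 and Col6a3 passed the filter on low values only through FAK-R454, the line where they are high. With a pseudocount of 1 the differences were 2.01, 2.19 and 2.44, and with limma-voom Col6a3 was at 5.11. Without β-catenin ΔGSK replicate 1 they were 2.17, 3.14 and 4.51. The pair shares its FAK-R454 samples with the next comparison and its β-catenin ΔGSK samples with the previous one, so these are not independent of each other.

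FAK-R454 also exceeded KMF, by less. This pair too differs in the clone, in the Ptk2 edit and in the transgene, which cannot be told apart. Col6a1 was 0.59 ± 0.07 higher (1.51-fold, 95% confidence interval 0.41 to 0.76, adjusted p = 0.00125). Col6a3 was 0.88 ± 0.14 higher (1.85-fold, interval 0.54 to 1.22, adjusted p = 0.00345) and Col6a2 0.38 ± 0.12 higher (1.30-fold, interval 0.08 to 0.67, adjusted p = 0.0454). The Col6a2 adjusted p was not below 0.05 without KMF replicate 1 (0.0551) or replicate 2 (0.0605). It also exceeded 0.05 without the filter on low values (0.0861) or the variance trend (0.0598). The same held with median-of-ratios scaling (0.0630), 1 fit over all 5 lines (0.0691) and chromosomes centred (0.0749). Leaving out FAK-R454 replicate 1 or 2, which leaves a lone sample, gave differences of 0.26 and 0.50. None of the 3 chains reached the fold threshold, which 4.28% of all genes passed in that direction together with the p threshold. Chromosome 1, which holds Col6a3, had a median difference of -0.24 against 0.01 over all genes in this comparison, and with each chromosome centred on its own median Col6a3 was 1.13 higher and was called. It was also called, at 1.02, without KMF replicate 3, the highest KMF sample for that gene.

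**Figure D2:**
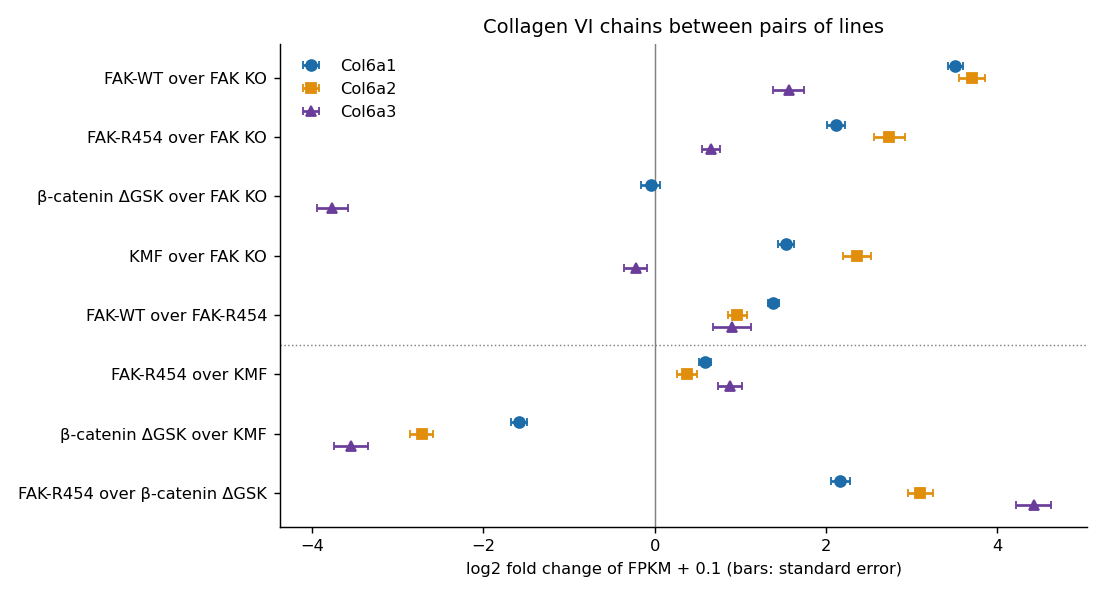
Difference of each chain between pairs of lines on the log2(FPKM + 0.1) scale, with bars of 1 standard error. Pairs above the dotted line hold the samples the genes were picked on and carry no test, those below were tested, and Col6a2 has no point for β-catenin ΔGSK over FAK KO. Col6a3 has the smallest of the FAK-WT over FAK KO differences (1.56) and lies at -3.76 in β-catenin ΔGSK over FAK KO.

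The balance of the chains varied with the line. The summed FPKM of the 3 chains was lowest in β-catenin ΔGSK, at 6.55 ± 0.588, followed by FAK KO (10.1 ± 1.03), KMF (25.2 ± 0.728), FAK-R454 (37.9 ± 2.93) and FAK-WT (91.2 ± 3.89). Col6a3 made up 32.6% ± 1.45 of that sum in FAK KO, against 11.2% ± 1.85 in KMF, 11.1% ± 2.94 in FAK-WT and 13.9% ± 1.06 in FAK-R454. In β-catenin ΔGSK its share was 2.35% ± 0.657. The FAK KO samples, at 31.2% to 34.1%, and the β-catenin ΔGSK samples, at 1.59% to 2.74%, thus lay on opposite sides of the other lines, although their summed levels were the lowest.

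Levels of Col6a1 per Col6a2 were nearest to each other in KMF, at 3.31 ± 0.515, and in FAK-R454, at 3.79 ± 0.132. The ratio was 5.08 ± 0.652 in FAK-WT, 6.34 ± 1.11 in FAK KO and 8.08 ± 1.33 in β-catenin ΔGSK. Col6a1 per Col6a3 ranged much more, from 1.78 ± 0.149 in FAK KO to 39.5 ± 14.2 in β-catenin ΔGSK, with 6.16 ± 0.932 in KMF, 6.96 ± 1.69 in FAK-WT and 4.91 ± 0.399 in FAK-R454. Col6a2 was below Col6a3 in every FAK KO sample (ratio 0.285 ± 0.0342) and above it in every sample of KMF, FAK-R454 and β-catenin ΔGSK. In FAK-WT the ratio was 1.41 ± 0.486, above 1 in replicates 1 and 2 (1.81 and 1.56) and at 0.868 in replicate 3. These ratios describe mRNA per length and not the make-up of the protein.

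**Figure D3:**
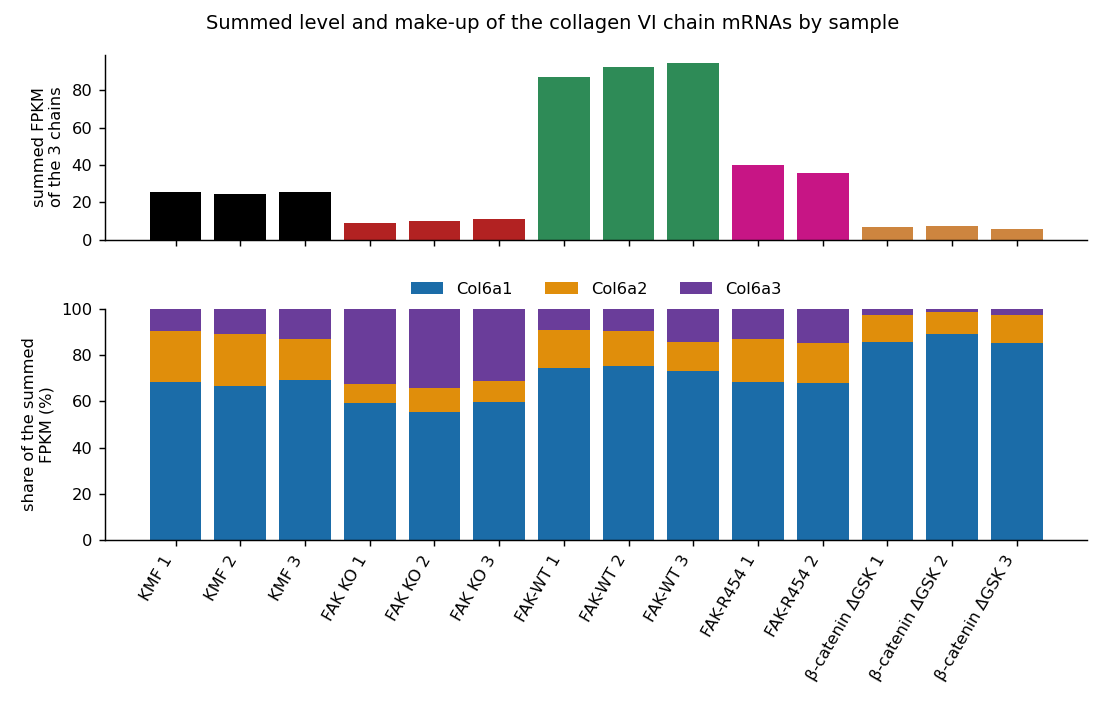
Summed FPKM of the 3 chains (upper bars, colored by line) and the share of each chain in that sum in percent (lower bars) for each of the 14 samples. Col6a3 takes 31.2% to 34.1% in the FAK KO samples and 1.59% to 2.74% in the β-catenin ΔGSK samples.

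Fibroblasts are a main source of collagen VI in tissue, so their markers were read in the same libraries. Of 10 fibroblast markers, 4 (Pdgfra, Col1a1, Col3a1 and Dcn) were on average above 1 FPKM in every line but β-catenin ΔGSK, where Dcn alone was. The other 6 were below 0.1 FPKM in every line, and among them Col1a2, Thy1 and Postn never exceeded 0.0198 FPKM in any sample. The summed fibroblast markers ran from 31.1 to 45.4 FPKM in β-catenin ΔGSK, 81.1 to 100.9 for KMF and 96.7 to 135.8 for FAK KO samples. They were highest with FAK-R454 (145.8 to 158.0) and FAK-WT (156.5 to 184.8), and their part in the collagen VI differences was not tested. The summed epithelial and ovarian surface markers were also highest in FAK-WT, at 1570 to 1809 FPKM against 1069 to 1400 in the other lines. Of 6 leukocyte markers only Cd68 was above 1 FPKM, and the sum was 6.63 to 12.3 FPKM in FAK-WT and 1.09 to 4.34 in the other lines, with Ptprc at most 0.00759 FPKM. Tek was the main endothelial marker, from 6.29 to 28.8 FPKM, whereas Cdh5 stayed at or below 0.0432 FPKM.

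The genes that make, bind and process collagen VI were read from 5 lists of 67 genes, all found in the table. The lists were chosen with earlier results of these data known. Their counts and medians beside those of all genes are therefore a description and not a test of the lists. The list of other family chains had no tested member, and 44 or 45 genes of the remaining lists were tested in each comparison. In FAK-WT over FAK KO, 7 of 44 rose and 0 fell, where 2.91% of all genes rose and 1.71% fell. Without FAK-WT replicate 3, 4 rose. The median difference was 0.29, against -0.08 over all genes tested. In FAK-R454 over FAK KO, 6 of 44 rose and 0 fell, where 1.93% of all genes rose and 0.812% fell, and the median was 0.32 against -0.03. These comparisons share their FAK KO samples. At an adjusted p under 0.05 with no fold threshold, 21 were higher and 2 lower with FAK-WT, where 15.6% of all genes were higher and 25.2% lower. With FAK-R454 it was 21 and 3, where 9.78% of all genes were higher and 9.89% lower. At an unadjusted p under 0.05 the partner genes lower numbered 3 with FAK-WT and 4 with FAK-R454, where 31.9% and 19.4% of all genes were lower, and limma-voom also called 0 lower in each.

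Among the matrix partners, biglycan and fibronectin rose with either form of FAK. Bgn, a small proteoglycan that links collagen VI microfibrils to other matrix proteins, was at 49.0 ± 4.20 FPKM in FAK KO, 140.7 ± 7.58 in FAK-WT and 119.9 ± 4.15 in FAK-R454. Its differences were 1.52 ± 0.08 (adjusted p = 1.20e-05) and 1.29 ± 0.08 (adjusted p = 8.66e-05). Bgn was far higher in KMF, at 530.7 ± 24.3 FPKM, and lowest in β-catenin ΔGSK, at 4.67 ± 0.198 FPKM. It followed the order of Col6a1 except that KMF, not FAK-WT, was highest and that β-catenin ΔGSK lay clear of FAK KO.

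Fn1, fibronectin, was at 55.7 ± 7.35 FPKM in FAK KO, 191.6 ± 68.1 in FAK-WT and 162.6 ± 10.7 in FAK-R454, which gave differences of 1.73 ± 0.21 (adjusted p = 0.000677) and 1.55 ± 0.11 (adjusted p = 0.000135). Without FAK-WT replicate 3 the first was 1.46 and still called. Matn2, a matrilin that can bind collagen VI, rose by 1.07 ± 0.17 with FAK-WT (adjusted p = 0.00205) and 1.21 ± 0.12 with FAK-R454 (adjusted p = 0.000563). In FAK-WT the call for Matn2 was lost without replicate 3 (0.88), without FAK KO replicate 2 (0.97) and with chromosomes centred (0.77). Matn2 is on chromosome 15, whose median difference in this comparison was 0.30.

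The receptor list had 5 tested genes, and Itga10, the α10 subunit of a collagen-binding integrin, was the one that rose with FAK-WT, from 3.93 ± 0.231 to 9.55 ± 0.245 FPKM (1.26 ± 0.08, adjusted p = 3.05e-05). It was at 33.0 ± 5.23 FPKM in KMF. The other tested members were Antxr1 and Antxr2, cell surface proteins known to bind collagen VI, the integrin subunit Itgb1, and Mrc2, an endocytic collagen receptor, and none of them was called with either form of FAK. Over all genes, 2.91% were called higher with FAK-WT and 1.93% with FAK-R454. Of 17 tested genes for collagen synthesis, folding and secretion, none was called with FAK-WT or FAK-R454, although 9 and 7 were higher at an adjusted and 11 and 11 at an unadjusted p under 0.05. At the adjusted p, 15.6% of all genes were higher with FAK-WT and 9.78% with FAK-R454, and at the unadjusted p it was 19.2% and 16.8%. Limma-voom called none of them either, and the list medians were 0.32 and 0.30.

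Where 2.91% of all genes rose with FAK-WT and 1.93% with FAK-R454, 3 of 14 tested genes of the processing list rose with each. With FAK-WT these were Pcolce2, an enhancer of procollagen cleavage (1.30 ± 0.13, adjusted p = 0.000306), Timp3, a matrix-bound metalloproteinase inhibitor (1.03 ± 0.14, adjusted p = 0.000986), and Loxl2, a collagen cross-linking enzyme (1.20 ± 0.39, adjusted p = 0.0367). The Loxl2 and Timp3 calls rested on FAK-WT replicate 3, without which the differences were 0.70 and 0.86. Leaving out any FAK KO sample also ended the Loxl2 call, with an adjusted p of up to 0.119. The Loxl2 call was also lost with no filter on low values (adjusted p = 0.0856) and without the variance trend (adjusted p = 0.0623). With FAK-R454 the 3 were the cross-linking enzymes Lox (1.67 ± 0.29, adjusted p = 0.00684), Loxl1 (1.12 ± 0.10, adjusted p = 0.000264) and Loxl3 (1.04 ± 0.09, adjusted p = 0.000214). Genes of this list called with a single form of FAK were also higher with the other, but not called there. With FAK-WT, Lox was 1.35 higher (adjusted p = 0.0743), Loxl1 0.72 and Loxl3 0.53. With FAK-R454, Loxl2 was 0.82 higher, Pcolce2 0.76 and Timp3 0.50. The Lox call was lost without FAK-R454 replicate 2 (adjusted p = 0.0555) and the Loxl3 call with a pseudocount of 1 (0.90).

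No partner gene was called between FAK-WT and FAK-R454 by limma, whereas 0.696% of all genes were called higher and 0.747% lower. At an adjusted p under 0.05 with no fold threshold, 4 of 44 were higher and 6 lower in FAK-WT, where 3.38% of all genes were higher and 4.44% lower. At an unadjusted p under 0.05 it was 10 and 10, where 9.61% of all genes were higher and 17.3% lower. Loxl4, a further cross-linking enzyme named here after its value was seen, passed the fold threshold at 1.02 with median-of-ratios scaling and was the 1 gene called by limma-voom. Without FAK-WT replicate 3 both Loxl4, at 1.01, and Lox, at -1.01, were called.

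Most of the partner genes called in β-catenin ΔGSK were lower than in FAK KO. Against FAK KO, 9 of 44 fell and 2 rose, where 6.99% of all genes fell and 5.13% rose, and the median was -0.32 against -0.09. Bgn had the largest fall, -3.36 ± 0.08 (adjusted p = 1.62e-08). Matn2 fell by 1.40 (SE 0.13, adjusted p = 3.54e-05) and Dcn, the proteoglycan decorin, by 1.36 (SE 0.17, adjusted p = 0.000203), to 38.6 ± 7.75 FPKM. Bmp1, the procollagen C-proteinase, fell from 55.5 ± 2.96 to 23.8 ± 2.71 FPKM, Mrc2 from 11.9 ± 0.771 to 4.74 ± 0.377 and P4ha3, a prolyl 4-hydroxylase subunit, from 5.52 ± 0.758 to 2.25 ± 0.326. Timp1, a metalloproteinase inhibitor, and Loxl3 also fell, to 21.2 ± 3.01 and 1.93 ± 0.299 FPKM, but with chromosomes centred they missed the fold threshold at -0.87 and -0.92. Timp1 also missed it with median-of-ratios scaling (-0.99), and Loxl3 with a pseudocount of 1 (-0.85) and without β-catenin ΔGSK replicate 1 (-0.995). The call for Lox (-1.03 ± 0.32, adjusted p = 0.0233) came with overlapping samples and was lost in 8 alternatives, with an adjusted p of up to 0.167. Timp3 and Loxl2 rose, by 1.52 ± 0.09 and 1.57 ± 0.21, which are genes that also rose with FAK-WT.

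In KMF over FAK KO, 7 of 45 partner genes rose and 3 fell, where 3.97% of all genes rose and 4.04% fell, with a median of 0.11 against -0.05. One of the 7, Fbn1, was tested only here, through its KMF level alone. The largest rises were those of Bgn (3.44 ± 0.08, adjusted p = 3.95e-08) and Itga10 (3.02 ± 0.11, adjusted p = 4.57e-07). Fbn1, the microfibril protein fibrillin-1, was at 1.87 ± 0.0122 FPKM in KMF and 0.369 ± 0.0457 in FAK KO, and its line means in the clone-derived lines were all below 1 FPKM. Pcolce2, Loxl2, Timp3 and P3h2, a prolyl 3-hydroxylase, rose by 1.75, 1.55, 1.36 and 1.14. Dcn, Mrc2 and Loxl3 fell by 1.57, 1.28 and 1.05 on the log2 scale. With a pseudocount of 1, P3h2 (0.99) and Loxl3 (-0.81) missed the fold threshold, as did Loxl3 with chromosomes centred (-0.75) and without KMF replicate 1 (-0.96).

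**Figure D4:**
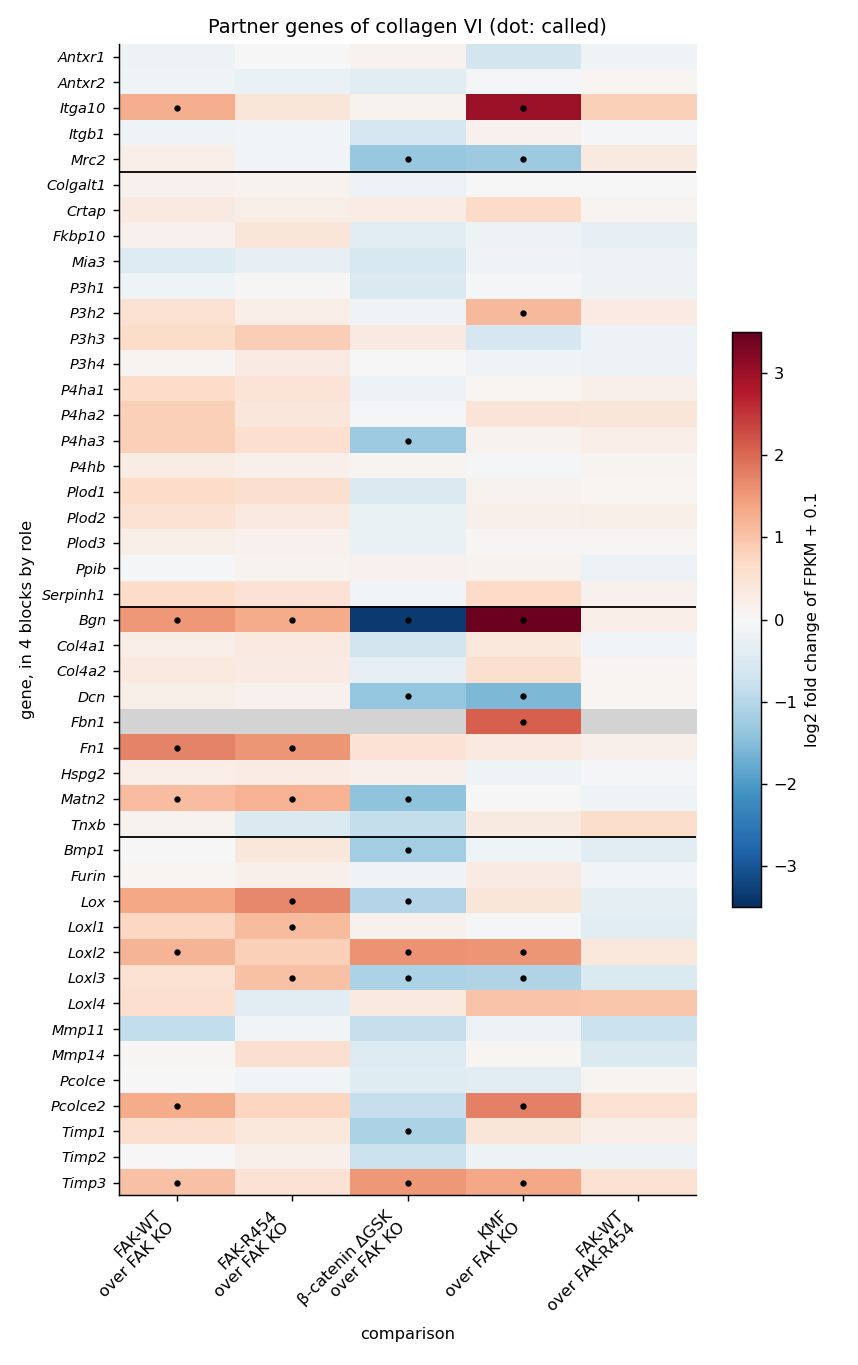
Differences of the tested partner genes on the log2(FPKM + 0.1) scale in 5 comparisons, with blocks from top to bottom for receptors, synthesis and folding, matrix partners and processing. A dot marks a called gene and grey a gene not tested, and Bgn runs from -3.36 in β-catenin ΔGSK to 3.44 in KMF, both over FAK KO.

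Genes within 500 kb of the collagen VI loci were read to see whether whole regions moved. Around Col6a1 and Col6a2, 8 of 19 genes were tested, and with FAK-WT none of them was called by limma or limma-voom (2 at an unadjusted p under 0.05). Over all genes 2.91% were called higher and 1.71% lower, and 19.2% and 31.9% were so at the unadjusted p, so counts this low say little about the region. The median difference of the 8 genes was 0.10, and that of chromosome 10 was -0.0798 against -0.0760 over all genes tested. Col18a1, a basement membrane collagen gene 326 kb away, was called with FAK-R454 (1.42 ± 0.09, adjusted p = 9.90e-05), and lower in β-catenin ΔGSK (-1.96 ± 0.12, adjusted p = 3.17e-06) and in KMF (-1.41 ± 0.11, adjusted p = 1.56e-05), each over FAK KO. Its level was 3.72 FPKM in FAK KO against 0.879 in β-catenin ΔGSK, so it passed the filter there only through FAK KO. With FAK-WT its difference was 0.75 ± 0.10.

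Another 2 genes near this pair were called. Slc19a1, a folate transporter, was higher in β-catenin ΔGSK (1.27) and KMF (1.12) than in FAK KO, although the KMF call was lost with a pseudocount of 1 (0.93) and without FAK KO replicate 1 (0.98). Below the fold threshold, Slc19a1 was also higher with FAK-WT (0.73 ± 0.13, adjusted p = 0.0042) and FAK-R454 (0.57 ± 0.15, adjusted p = 0.034). S100b, a calcium-binding protein, had 0.0158 FPKM in β-catenin ΔGSK against 1.12 in FAK KO (-3.42), so that it passed the filter of 1 FPKM only through FAK KO, and its difference was -1.06 with a pseudocount of 1 and -5.77 with limma-voom. Around Col6a3, 6 of 18 genes were tested and none was called with FAK-WT or FAK-R454 by limma or limma-voom (1 and 2 at an unadjusted p under 0.05). Of all genes, 2.91% were called higher and 1.71% lower with FAK-WT, and 1.93% and 0.812% with FAK-R454. At the unadjusted p it was 19.2% and 31.9% with FAK-WT and 16.8% and 19.4% with FAK-R454, so these counts also say little about the region. Rab17, a vesicle transport GTPase, was higher in β-catenin ΔGSK (1.27 ± 0.15) and KMF (1.78 ± 0.16), and Ramp1, a receptor-associated membrane protein, was lower in β-catenin ΔGSK (-1.75 ± 0.07). The Rab17 call in β-catenin ΔGSK was lost with a pseudocount of 1 (0.94). Within 1000 kb, 25 genes around Col6a1 and Col6a2 were tested with FAK-WT, of which 7 were at an unadjusted p under 0.05 and 1 was called higher by both limma and limma-voom, where 2.91% of all genes were called higher by limma. It was Gstt1, a glutathione transferase gene, named here after its value was seen. Gstt1 had 2.03 FPKM in FAK-WT and 0.775 in FAK KO (1.26 ± 0.20, adjusted p = 0.00218) and passed the filter only through FAK-WT. With a pseudocount of 1 this difference was 0.76 and Gstt1 was not called. Gstt1 was also called higher in KMF than in FAK KO (2.66 ± 0.15, adjusted p = 3.28e-06). The same held for FAK-WT over FAK-R454 (1.21 ± 0.22, adjusted p = 0.0311), and both calls passed the filter through the higher line alone. In this window β-catenin ΔGSK over FAK KO had 1 gene called higher and 4 lower of 24, where 5.13% and 6.99% of all genes were. KMF over FAK KO had 2 and 2 of 25, where 3.97% and 4.04% were. Around Col6a3, 0 of 11 were called with FAK-WT by limma or limma-voom, with 1 at an unadjusted p under 0.05.

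The 3 chains followed each other unequally over the 14 samples. Pearson's r of log2(FPKM + 0.1) was 0.97 between Col6a1 and Col6a2, 0.75 between Col6a1 and Col6a3 and 0.77 between Col6a2 and Col6a3. The samples fall into 5 lines, so r mainly describes the order of the lines, and no p is given. Of 12253 genes ranked by r with the mean standardized profile of the 3 chains, the 10 most alike were Sigirr (0.983), BC029214 (0.979), Lrrc32 (0.977), Ppl (0.973), Ptgds (0.973), Poldip3 (0.972), 1110038F14Rik (0.969), Dmpk (0.967), Sdc1 (0.963) and Trf (0.962).

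These genes were picked by their likeness to the chains, so their low level in β-catenin ΔGSK and high one in FAK-WT follow from that choice. They differed in range. Ptgds, a prostaglandin D2 synthase, was at 0.125 ± 0.0479 FPKM in β-catenin ΔGSK and 62.2 ± 15.0 in FAK-WT, with FAK KO at 2.79 ± 0.500, KMF at 5.54 ± 0.752 and FAK-R454 at 17.6 ± 0.234 between them. Sdc1, the cell surface proteoglycan syndecan-1, ranged only from 42.2 ± 2.09 in β-catenin ΔGSK to 81.8 ± 12.2 in FAK-WT. Lrrc32, a surface protein that holds latent TGF-β, was at 1.04 ± 0.253 FPKM in FAK-WT and listed at 0 in every β-catenin ΔGSK sample. Its mean was above 1 FPKM in FAK-WT alone. Sigirr, an inhibitory receptor of the interleukin-1 family, went from 0.151 ± 0.0128 FPKM in β-catenin ΔGSK to 2.39 ± 0.307 in FAK-WT. Poldip3 and 1110038F14Rik are on chromosome 15 and moved little, from 66.1 ± 2.77 to 102.2 ± 0.753 and from 36.0 ± 0.347 to 49.1 ± 1.68 FPKM.

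The list of like genes depended on the measure. Only 2 of the 10 were among the first 10 by r over the 5 line means, 2 by r with Col6a1 alone, 3 with Col6a2 alone and 0 with Col6a3 alone.

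**Figure D5:**
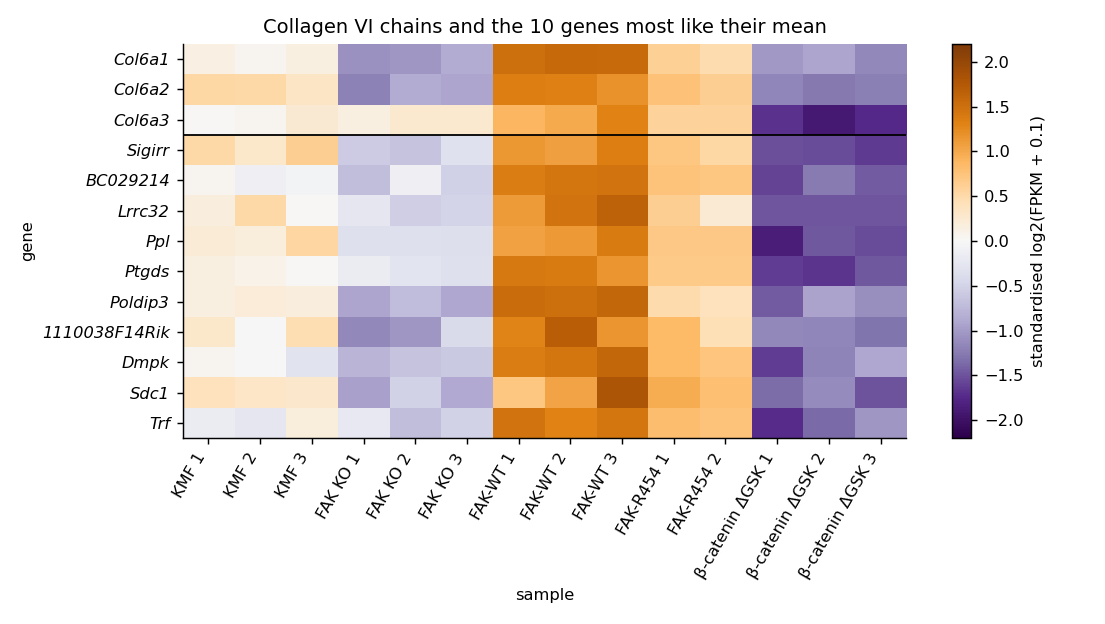
Standardized log2(FPKM + 0.1) of the collagen VI chains (top 3 rows) and the 10 genes most like their mean (r of 0.962 to 0.983) in each of the 14 samples. FAK-WT samples are high and β-catenin ΔGSK samples low in every row, which for the 10 genes follows from how they were picked. Col6a3 differs from Col6a1 and Col6a2 in the FAK KO samples.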

How the data were processed

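The deposited table gives FPKM for 35275 genes, made by the authors from paired-end reads of poly(A)-selected, NEBNext Ultra libraries. The submitters' processing notes name CASAVA 1.8, STAR 2.5, DESeq2 and build mm10, whereas the study's methods name another aligner, and strand use in counting is not given in the sources used here. FPKM times gene length gave whole fragments for 100% of values (tolerance 0.01), and these supplied the depths. No sample column was left out. The study's methods describe as many replicates for FAK-R454 as for FAK KO (3), whereas the table used here holds 2.

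The members and lists were chosen with earlier results of these data known. Tests used limma 3.58.1 in R 4.3.3 (lmFit and eBayes with a trend on log2(FPKM + 0.1), the samples of 2 lines per fit) on genes with a mean above 1 FPKM in at least 1 of the lines, with p-values adjusted over all genes tested. The procedure was tested on simulated data with 200 changed genes. The simulation gave every gene the same dispersion and held no outlying library, so it does not cover the spread seen between the real libraries. Named genes are the members, Ptk2 and Ctnnb1, the family chains, up to 6 called genes per list and comparison, the 10 most like genes and called genes within 500 kb, besides markers. Alternatives were another pseudocount, filter, scaling, variance trend, pooled fit, replicate block, limma-voom on recovered fragments, chromosome centring, no fold threshold, a 1 Mb window and leaving out each sample. Promoter sequences are from RefSeq, gene positions from the table and exons from GENCODE (GRCm38). Tools were Python 3.11.15, pandas 2.3.3 and matplotlib 3.10.9.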

Additional observations from a re-analysis of the deposited data

How the results depend on the processing

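None of the called values of the chains, the partner genes and the neighbouring genes within 500 kb reversed its direction in an alternative. Neither did Gstt1 in FAK-WT over FAK KO. With a pseudocount of 1, differences over FAK KO were 3.32 (Col6a1) and 2.89 (Col6a2) for FAK-WT, 1.97 and 2.01 for FAK-R454, 1.40 and 1.68 for KMF, and -1.90 (Col6a3) for β-catenin ΔGSK. Limma-voom gave -4.44 for the last. With chromosomes centred, Col6a1 over FAK KO was 3.62 for FAK-WT and 0.095 for β-catenin ΔGSK, Col6a3 over FAK KO was -0.42 for KMF, and Col6a3 in FAK-R454 over KMF was 1.13 (called, adjusted p = 0.00162).

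Without the fold threshold, partner genes higher and lower were 21 and 2 for FAK-WT over FAK KO, 21 and 3 for FAK-R454, 6 and 25 for β-catenin ΔGSK, 15 and 8 for KMF, and 4 and 6 in FAK-WT over FAK-R454. Of all genes, 23.7% were then higher and 34.4% lower in β-catenin ΔGSK, and 23.1% and 28.7% in KMF. In FAK-WT over FAK-R454, 1 partner gene was higher under median-of-ratios scaling and under limma-voom.

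Leaving out each sample gave 1.33 to 1.72 for Col6a3 in FAK-WT over FAK KO (lowest without FAK-WT replicate 3) and 1.30 to 1.47 for Col6a1 in FAK-WT over FAK-R454. Col6a3 in FAK-R454 over KMF spanned 0.79 to 1.02. Partner genes higher in FAK-WT over FAK KO numbered 4 (without FAK-WT replicate 3) to 9. In FAK-WT over FAK-R454 they numbered 0 to 1 in each direction, where leaving out a FAK-R454 sample leaves a lone sample assumed to vary like the others.

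Same-numbered replicates did not pair throughout: r of their deviations ran from -0.27 to 0.48, and no comparison had all above 0.1. Only in β-catenin ΔGSK over FAK KO was r positive for every replicate (0.48, 0.32 and 0.097), and its main fit was unpaired. The replicate block gave 1.02 for Col6a3 in FAK-R454 over KMF (called, adjusted p = 8.73e-05) and 1 partner gene each way in FAK-WT over FAK-R454. In both, the block takes out the third replicate, which has no partner. It ended no call of a member.

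Over all genes, a pseudocount of 1 changed the calls in FAK-WT over FAK KO from 344 higher and 203 lower to 174 and 99, in FAK-R454 over FAK KO from 228 and 96 to 108 and 37, in KMF over FAK KO from 472 and 481 to 274 and 292, in FAK-WT over FAK-R454 from 82 and 88 to 26 and 50, and in FAK-R454 over KMF from 509 and 296 to 309 and 190. In β-catenin ΔGSK over FAK KO the genes called lower went from 833 to 535. Without FAK-R454 replicate 2, 148 genes were higher than in FAK KO. FAK-WT over FAK-R454 gave 4 higher without either FAK-R454 sample and 30 without FAK-WT replicate 2, with 3, 4 and 51 lower. The causes were not tested. Col6a3 had only 29 to 52 fragments per β-catenin ΔGSK sample, and its differences moved with the pseudocount.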
